A study of Mus musculus with 4 samples.

Results

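The cadherins outside the protocadherin clusters were examined in RNA that was immunoprecipitated with the kinase TSSK2 from mouse germ cells. Members were defined by gene symbol, as Cdh, Cdhr, Celsr, Fat, Dchs, Dsc, Dsg, Clstn or Pcdh followed by a number. This rule, set with earlier results of these data known, found 61 of the 21936 genes in the count table. The 57 genes of the Pcdha, Pcdhb and Pcdhg clusters were left out of the members and are given only for comparison. TSSK2 is a testis-specific serine kinase found in the late chromatoid body of elongating spermatids, and the experiment asked which RNAs come down with it. Germ cells were released with collagenase from the testes of adult C57BL/6 mice older than 8 weeks, cross-linked with 0.2% paraformaldehyde, and broken up by lysis and sonication, after which the insoluble pellet was incubated with an anti-TSSK2 antibody (TSSK2-IP, 2 libraries) or with mouse IgG (control IgG-IP, 2 libraries). All 4 libraries shared the strain, the tissue and the cross-linking, and no input RNA was analysed here, so a value is a level in a precipitate and not in a cell. The labels do not say whether replicates came from separate animals, so the p-values measure only the spread between these samples, which may be technical.

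Cadherins are membrane proteins whose extracellular part is built of repeated cadherin domains, and calcium ions bound between neighbouring repeats stiffen the chain so that it can bind a cadherin on another cell. Classical cadherins hold cells together through catenins and actin, and desmosomal cadherins do so through plakoglobin, plakophilins and keratin filaments. The giant Fat, Dachsous and Celsr proteins act in planar cell polarity, and protocadherins mostly serve recognition between cells, above all in the nervous system. In the seminiferous epithelium, N-cadherin (Cdh2) is a known component of the junctions between Sertoli cells and germ cells.

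The calcium-binding linkers between repeats contain the amino acid motif aspartate, any residue, asparagine, aspartate, asparagine. It was searched in the translated coding sequence of each gene because it shows what the members share beyond their names. It was present in 57 of the 61 members (93.4%), in all 57 clustered protocadherins, and in 162 of 21906 coding genes (0.740%). Fat4 had the most copies, 24, Cdh23 had 17, Fat1 15 and Dchs1 11, while Cdh13 had 2. It was not found in Clstn1, Clstn2, Clstn3 or Cdhr4. The following coding stretches of 30 bases, read in the coding direction from the mouse genome GRCm38, each hold 1 copy with its codons in capitals, and they are shown for the members on which the results below turn:
Cdh13, chr8:118968115-118968144, plus strand: gtgattGACCAGAACGACAACagacccatc
Pcdh9, chr14:93888310-93888339, minus strand: gtcaagGATACCAATGATAATgcccccatg
Dchs1, chr7:105772147-105772176, minus strand: gtgcgaGATGCAAATGACAATcagccgtcc
Cdh11, chr8:102673861-102673890, minus strand: gtccagGACATTAATGACAACcctccagag
Fat1, chr8:44952650-44952679, plus strand: gttctgGATGCCAATGACAATgcgcccgag
Cdh23, chr10:60596751-60596780, minus strand: gttggaGATGTGAATGACAATgcacccaca
Across the 49 tested members, the number of copies had a Pearson correlation of 0.02 and a Spearman correlation of -0.02 with the log2 fold change between the groups, given as a description over genes that share the same 4 libraries.

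Library totals were 4158034 and 4491749 counts for TSSK2-IP and 9858941 and 3938922 counts for control IgG-IP. Levels are TMM-normalized CPM, which are each gene's counts scaled by the library total and by a TMM factor for the library's composition. The factors were 1.17 and 1.18 for TSSK2-IP and 0.652 and 1.12 for control IgG-IP. On this scale 1 count was worth between 0.156 and 0.230 CPM. The limit of 3 counts was between 0.468 and 0.689 CPM, covering counting error only. With 2 libraries against 2, an exact two-sided permutation test cannot go below p = 0.333, so p-values come from edgeR's quasi-likelihood test, adjusted over all 14722 genes tested by the Benjamini-Hochberg method. The sample titles name testis, and the germ cell preparation is described in the paper's methods. Spermatid markers (5 genes, protamines and transition proteins among them) had a summed level of 2458 to 4110 CPM. Spermatocyte markers (5 genes) summed to 580 to 715 CPM. Markers of somatic cells were also present. The Sertoli cell list (6 genes) summed to 46.4 and 35.0 CPM in TSSK2-IP and to 14.0 and 36.5 CPM in control IgG-IP. The Leydig cell list (5 genes) summed to 35.4 and 34.6 CPM in TSSK2-IP and to 14.4 and 33.3 CPM in control IgG-IP. The sums were 13.6 to 31.5 CPM for endothelium (4 genes), 14.98 to 32.4 CPM for peritubular cells and smooth muscle (4 genes), 16.4 to 27.02 CPM for macrophages (4 genes) and 27.2 to 37.9 CPM for spermatogonia (5 genes). The one marker at 0 in any library was Insl3 of the Leydig list, in control IgG-IP 1. In RNA from precipitates, fewer cells of a type, less RNA per cell and less RNA carried down cannot be told apart.

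No cadherin outside the clusters passed both thresholds, which were an adjusted p of at most 0.05 and a difference between the groups of 1 or more on the log2 scale. Counted by edgeR, 0 members were called higher in TSSK2-IP, against 0.693% of all genes tested, and 0 were called lower, against 0% of all genes tested. DESeq2, which covered all 61 members and 21267 genes, called 0 members higher and 0 lower, against 0.654% and 0% of those genes. At an unadjusted p under 0.05, edgeR gave 2 of the 49 tested members higher (4.08%, Cdh13 and Pcdh9), against 8.34% of all genes tested, and 1 lower (2.04%, Dchs1), against 4.89%. DESeq2 gave 0 of 61 members higher, against 4.02%, and 1 of 61 lower (Dchs1), against 5.65%. These shares were thus not above those of all genes. Of the 49 members with enough counts to be tested, 16 had a log2 fold change above 0 and 33 one below 0. Their median was -0.37, between -1.38 and 1.08, beside a median of -0.02 over all genes tested. The smallest adjusted p of any member was 0.268.

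The TMM-normalized levels of the members summed to 749 and 769 CPM in TSSK2-IP and to 832 and 908 CPM in control IgG-IP. This order rests on the TMM factors. In raw counts the members had 3615 and 4043 in TSSK2-IP and 5333 and 3951 in control IgG-IP. As a share of the library total, control IgG-IP 1 was the lowest and control IgG-IP 2 the highest, so the groups overlapped. For 7 members (14.3%) the lower TSSK2-IP value exceeded the higher control value, as it did for 27.3% of all genes tested. For 14 members (28.6%) the higher TSSK2-IP value was under the lower control value, as it was for 21.6% of all genes tested. The groups overlapped for the remaining 28.

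**Figure D1:**
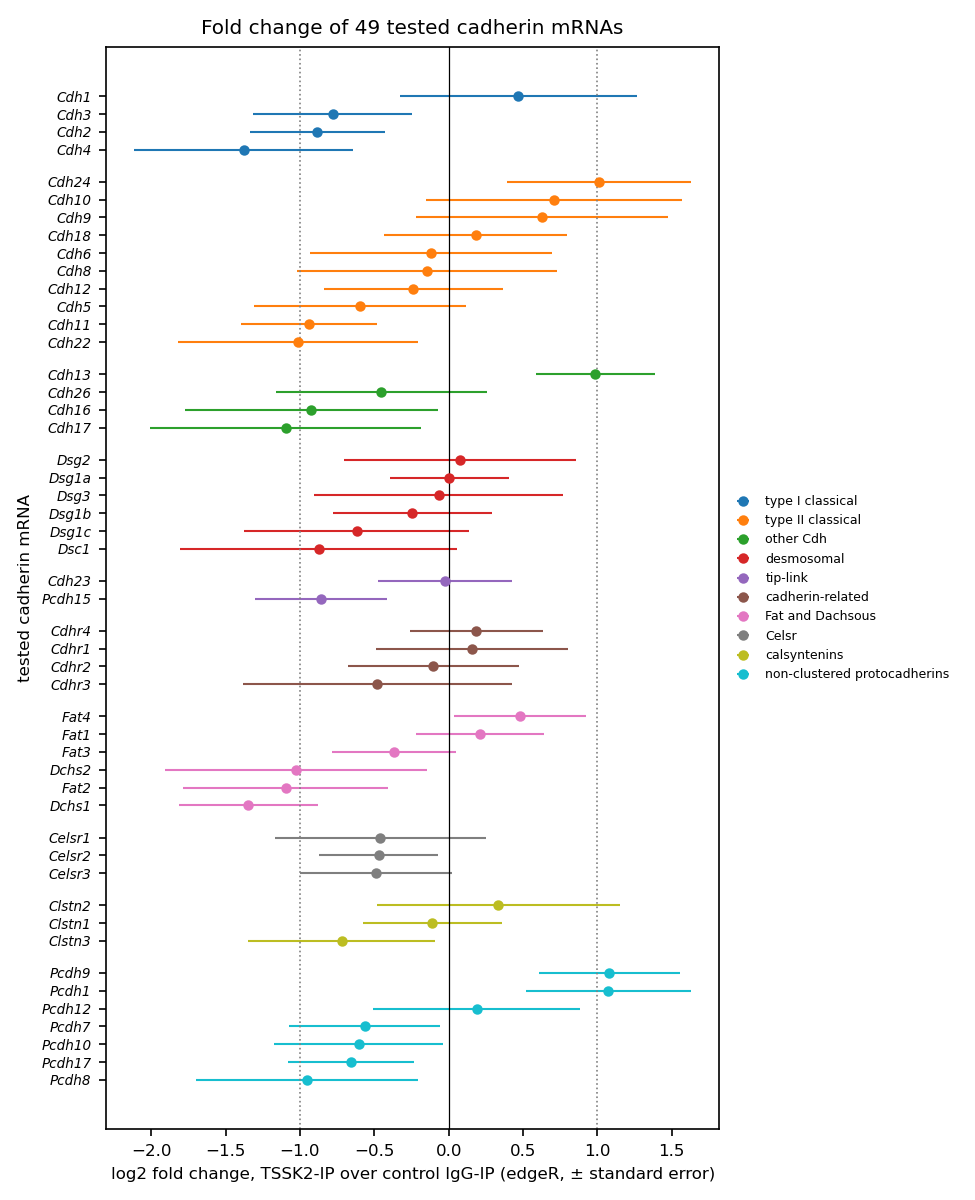
Log2 fold change of TSSK2-IP over control IgG-IP (horizontal axis) for the 49 tested cadherin mRNAs outside the protocadherin clusters (vertical axis), grouped and coloured by subfamily. Points are edgeR estimates, bars are standard errors, and dotted lines mark a log2 fold change of -1 and 1. The estimates run from -1.38 for Cdh4 to 1.08 for Pcdh9, and most lie below 0.

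The classical type I cadherins, which bind through a conserved motif in the outermost repeat and hold epithelial and neural cells together, had 4 tested members whose median log2 fold change was -0.83. N-cadherin, Cdh2, had 49.3 and 47.8 CPM in TSSK2-IP and 121 and 57.7 CPM in control IgG-IP. Both control libraries lay above both TSSK2-IP libraries, but control IgG-IP 1 was 2.10 times control IgG-IP 2, and the log2 fold change of -0.88 (SE 0.45) had an adjusted p of 0.406. R-cadherin, Cdh4, had 1.45 and 3.05 CPM in TSSK2-IP and 3.90 and 8.04 CPM in control IgG-IP. It had the lowest log2 fold change of all members, -1.38 (SE 0.74, adjusted p = 0.419), on counts of 7 to 35 per library. P-cadherin, Cdh3, was at -0.78 and E-cadherin, Cdh1, at 0.47. Cdh1 had 2.69 and 3.81 CPM in TSSK2-IP and 2.18 and 2.53 CPM in control IgG-IP, so that its groups did not overlap but lay close to one another. Cdh15, the M-cadherin of muscle, was not tested and had 5 to 14 counts per library.

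The type II classical cadherins, many of which are found in neurons and mesenchyme, spanned both directions, and the median of their 10 tested members was -0.13 on the log2 scale. Cdh24 had 12.9 and 9.13 CPM in TSSK2-IP and 2.18 and 8.96 CPM in control IgG-IP. The TSSK2-IP libraries were far above control IgG-IP 1 and hardly above control IgG-IP 2, and the log2 fold change of 1.01 (SE 0.62) had an adjusted p of 0.476. Cdh11, which marks mesenchymal cells, had 7.88 and 12.6 CPM in TSSK2-IP and 24.2 and 14.9 CPM in control IgG-IP. Its log2 fold change was -0.94 (SE 0.46, adjusted p = 0.3896). Cdh10 was at 0.71, Cdh9 at 0.63 and Cdh18 at 0.18. Cdh6 was at -0.12, Cdh8 at -0.15, Cdh12 at -0.24, Cdh5, the cadherin of endothelial junctions, at -0.60 and Cdh22 at -1.01. The groups of Cdh9, Cdh22, Cdh5, Cdh8, Cdh12, Cdh18 and Cdh6 overlapped. Cdh7, Cdh19 and Cdh20 were not tested, with 3 to 29 counts per library.

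Cdh13 is a truncated cadherin that is held in the membrane by a lipid anchor and lacks the cytoplasmic tail that binds catenins. It had 27.6 and 28.4 CPM in TSSK2-IP and 14.2 and 14.0 CPM in control IgG-IP. TSSK2-IP 1 was 0.972 times TSSK2-IP 2, control IgG-IP 1 was 1.01 times control IgG-IP 2, and the groups stood 1.98-fold apart. The group means were 27.96 ± 0.55 and 14.1 ± 0.13 CPM (SD, n = 2 each). They rest on 133 and 149 counts in TSSK2-IP and 91 and 61 counts in control IgG-IP. Counting error alone exceeds these SDs, so the closeness of the replicates does not measure precision. The log2 fold change of Cdh13 was 0.99 (SE 0.40). Its unadjusted p was 0.0268 by edgeR and its adjusted p 0.327, so it did not pass the test over all genes, and its log2 fold change stayed just under the threshold. The gene lies on chromosome 8, from 118283733 to 119324921 of GRCm38, and no other annotated exon overlaps its 11233 exon bases. The remaining Cdh genes outside the classical types were Cdh26 at -0.45, Cdh16, a cadherin of the kidney, at -0.92 and Cdh17, a cadherin of liver and intestine, at -1.09, all on low counts.

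Among the desmosomal cadherins the most abundant was Dsg1a, a desmoglein known from skin. It had 54.5 and 56.3 CPM in TSSK2-IP and 48.2 and 62.5 CPM in control IgG-IP, and a log2 fold change of 0.00 (SE 0.40). Per kilobase of exon it had the highest level of all members, 9.74 CPM per kb as the mean of the 4 libraries. Dsg1a and its neighbour Dsg1b share a stretch of 1588 bases at 98.4% identity, so how the counting divided reads between these copies is uncertain. Dsg2 was at 0.08, Dsg3 at -0.07, Dsg1b at -0.24, Dsg1c at -0.62 and Dsc1 at -0.88. The log2 fold changes of these 6 tested members had a median of -0.16. Dsc2, Dsc3 and Dsg4 were not tested and had 4 to 23 counts per library.

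Cdh23 and Pcdh15 form the tip links between the stereocilia of hair cells, with Cdh23 the upper and Pcdh15 the lower strand. Cdh23 had 122 and 110 CPM in TSSK2-IP and 109 and 128 CPM in control IgG-IP, so the groups overlapped, and its log2 fold change was -0.03 (SE 0.45). It had the most counts of any member over the 4 libraries, 2422, and 6.92 CPM per kb. Pcdh15 had 8.91 and 7.61 CPM in TSSK2-IP and 14.4 and 15.6 CPM in control IgG-IP. Its replicates lay close together and its groups did not overlap, and the log2 fold change was -0.86 (SE 0.44, adjusted p = 0.410). The cadherin-related genes lay around 0, with Cdhr4 at 0.18, Cdhr1, a photoreceptor cadherin, at 0.16, Cdhr2 at -0.10 and Cdhr3 at -0.48. Cdhr4 was the most abundant of them, with 21.1 and 12.7 CPM in TSSK2-IP and 17.9 and 11.7 CPM in control IgG-IP, but 1459 of its 3084 exon bases overlap Gm20661 and Gm20662 on the same strand. Cdhr5 had 1 to 5 counts per library and was not tested.

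The Fat and Dachsous cadherins are giant proteins that bind each other across cell borders, Fat4 with Dchs1 among them, and signal to planar cell polarity and the Hippo pathway. Their median log2 fold change was -0.70 over all 6 genes. Dchs1 had 15.96 and 13.1 CPM in TSSK2-IP and 52.3 and 21.6 CPM in control IgG-IP. It was below both controls, with control IgG-IP 1 at 2.42 times control IgG-IP 2, and its log2 fold change of -1.35 (SE 0.47) had the smallest adjusted p of all members, 0.268. Its binding partner Fat4 had 23.8 and 26.3 CPM in TSSK2-IP and 11.5 and 24.6 CPM in control IgG-IP, with a log2 fold change of 0.48 (SE 0.44, adjusted p = 0.635). Fat4 was thus at the level of control IgG-IP 2 and above control IgG-IP 1. Fat1 had 94.3 and 104 CPM in TSSK2-IP and 77.7 and 94.0 CPM in control IgG-IP, with a log2 fold change of 0.21, and 5.91 CPM per kb. Fat2 had 2.90 and 2.47 CPM in TSSK2-IP and 4.06 and 7.58 CPM in control IgG-IP, with a log2 fold change of -1.10 (SE 0.69, adjusted p = 0.488). Fat3 was at -0.37 and Dchs2 at -1.03. Exons of other genes on the opposite strand overlap 648 bases of Dchs1, 1299 of Dchs2, 1490 of Fat4 and 487 of Fat1. Outside this subfamily they overlap 2235 bases of Pcdh7, and fewer of Pcdh8, Dsg2, Cdh9, Cdhr4, Pcdh10 and Cdh8. The strand setting of the counting is not given in the sources used here.

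The Celsr genes, vertebrate counterparts of the fly polarity gene flamingo, lay at -0.46 for Celsr1, -0.47 for Celsr2 and -0.49 for Celsr3. Their near-equal fold changes came from different library values. Celsr2 had 49.3 and 48.9 CPM in TSSK2-IP and 74.4 and 61.8 CPM in control IgG-IP, without overlap, whereas Celsr3 had 9.74 and 9.89 CPM in TSSK2-IP and 7.65 and 20.2 CPM in control IgG-IP, with overlap. The calsyntenins, postsynaptic membrane proteins, overlapped in all 3 cases, with Clstn2 at 0.33, Clstn1 at -0.11 and Clstn3 at -0.72.

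The non-clustered protocadherins, single genes spread over several chromosomes, had 7 tested members whose median log2 fold change was -0.56. Pcdh9, the member with the highest log2 fold change, had 16.6 and 23.8 CPM in TSSK2-IP and 6.40 and 12.9 CPM in control IgG-IP. The groups did not overlap, and the log2 fold change was 1.08 (SE 0.47, adjusted p = 0.354). Pcdh1 had 33.2 and 25.5 CPM in TSSK2-IP and 5.30 and 23.0 CPM in control IgG-IP. Nearly all of its difference was against control IgG-IP 1, and its log2 fold change was 1.07 (SE 0.56, adjusted p = 0.410). Pcdh12, a protocadherin of endothelium, was at 0.19. Pcdh7 was at -0.56, Pcdh10 at -0.61, Pcdh17 at -0.66 and Pcdh8 at -0.95. Pcdh11x, Pcdh18, Pcdh19 and Pcdh20 had 0 to 14 counts per library and were not tested.

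**Figure D2:**
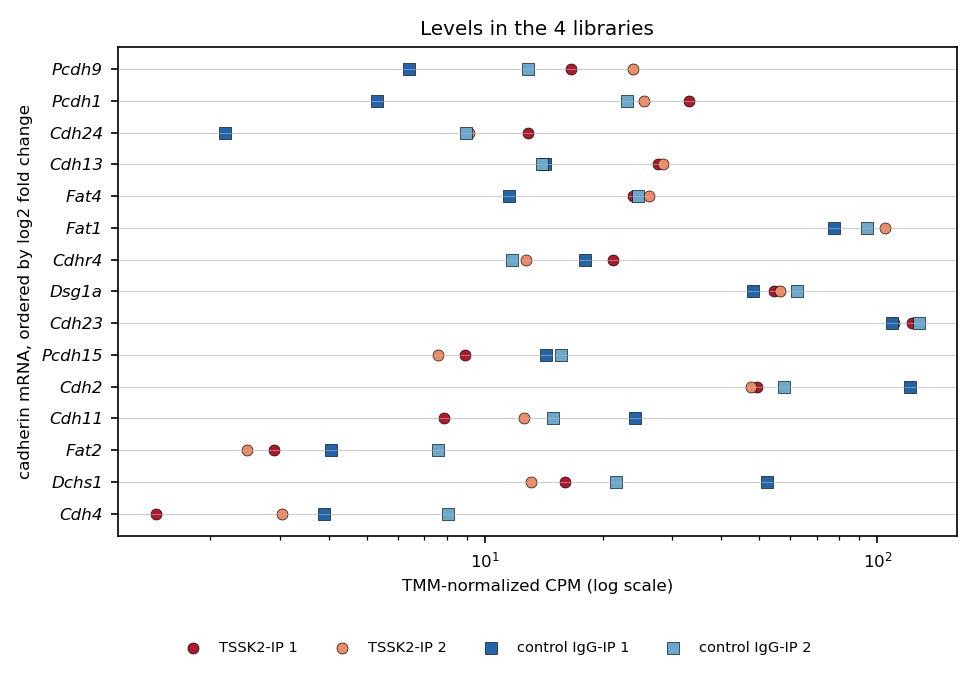
TMM-normalized CPM on a log axis (horizontal) of 15 cadherin mRNAs (vertical), with 1 point per library, circles for the 2 TSSK2-IP and squares for the 2 control IgG-IP libraries. The squares of Cdh13 fall on one another at 14.2 and 14.0 CPM, whereas those of Pcdh1 lie at 5.30 and 23.0 CPM.

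The levels were ordered per kilobase, since long genes collect more counts. After Dsg1a at 9.74 CPM per kb came Cdh2 at 8.55, Cdh23 at 6.92, Fat1 at 5.91 and Cdhr4 at 5.15. The libraries of Dsg1a ran from 8.48 to 11.0 and those of Cdh2 from 5.92 to 15.03 CPM per kb, so these neighbours in the order did not differ beyond their spread. Cdh23 (6.44 to 7.53) and Fat1 (4.96 to 6.66), and Fat1 and Cdhr4 (3.80 to 6.86), also overlapped. The lowest tested member reached 0.223 CPM per kb. The 12 members that were not tested had totals of 10 to 58 counts over the 4 libraries. They did not pass edgeR's filter, which goes by the level in each library as well as by the total. The tested members had totals of 45 to 2422.

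Which members stood apart depended on the control library. In control IgG-IP, 22 of the 49 tested members (44.9%) differed at least 2-fold between replicates, 20 of them higher in control IgG-IP 2. Among all genes tested 43.5% did so, 3920 of 6394 higher in control IgG-IP 2. In TSSK2-IP, 8 members (16.3%) differed at least 2-fold, all 8 higher in TSSK2-IP 2. Among all genes tested 6.65% did so, 563 of 979 higher in TSSK2-IP 2. These 8 members had only 4 to 9 counts each in TSSK2-IP 1. The median level was 5.73 CPM over the tested members and 16.5 CPM over all genes tested. The part of low counts in these shares was not tested. The mean of the TSSK2-IP libraries was above both controls for 11 members, below both for 19, above control IgG-IP 1 alone for 17 and above control IgG-IP 2 alone for 2. The median log2 ratio of the TSSK2-IP mean was 0.09 over control IgG-IP 1 and -0.46 over control IgG-IP 2. For Cdh13 these log2 ratios were 0.98 and 1.00. For Pcdh9 they were 1.66 and 0.65, for Pcdh1 2.47 and 0.35, and for Cdh24 2.33 and 0.30. For Cdh9, at 3.52 and 5.52 CPM in TSSK2-IP and 0.780 and 5.28 CPM in control IgG-IP, they were 2.53 and -0.23. On the lower side they were -1.85 and -0.57 for Dchs1, -1.32 and -0.25 for Cdh2 and -0.80 and -1.84 for Cdh4. For Cdh11 they were -1.24 and -0.55. Lower members could also have close ratios, with -0.80 and -0.92 for Pcdh15 and -0.72 and -0.60 for Pcdh17. The Sertoli, Leydig, peritubular and endothelial sums given above were also lowest in control IgG-IP 1, as were Pcdh1, Cdh24, Cdh9 and Fat4. Within these lists Acta2, Des, Tie1 and Cldn11 were not lowest there. The macrophage and spermatogonia sums were not either, at 18.3 and 29.5 CPM in control IgG-IP 1 against lowest sums of 16.4 and 27.2 CPM. Dchs1, Cdh2 and Cdh11 were highest in control IgG-IP 1. The part of these cells in the results was not tested.

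**Figure D3:**
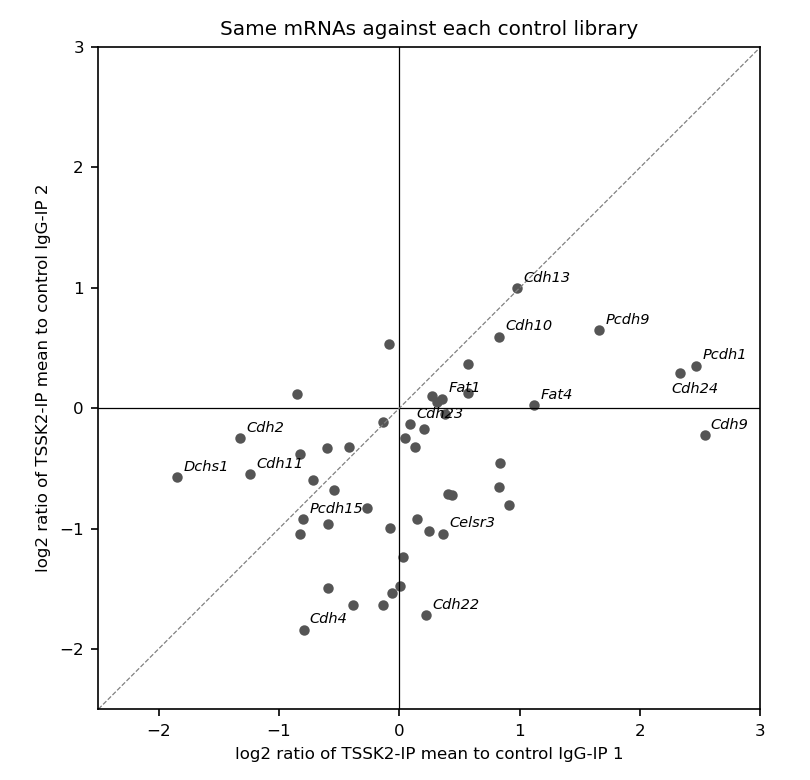
Log2 ratio of the TSSK2-IP mean to control IgG-IP 1 (horizontal axis) against the log2 ratio to control IgG-IP 2 (vertical axis), with 1 point for each of the 49 tested cadherin mRNAs and the dashed line marking equal ratios. Both ratios share the same TSSK2-IP mean, and 17 points lie above 0 against control IgG-IP 1 alone, while Cdh13 sits on the line at 0.98 and 1.00.

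Leaving out either control library in turn called different members, each time with the remaining control assumed to vary like the TSSK2-IP libraries. Without control IgG-IP 1, Cdh13 was higher past both thresholds at a log2 fold change of 1.05 (edgeR, adjusted p = 0.00335), where 5.38% of all genes tested were called higher. Without control IgG-IP 2 its log2 fold change of 0.91 was under the threshold of 1. Cdh4 at -1.76, Cdh22 at -1.64 and Cdh20 at -2.19 were lower without control IgG-IP 1, where 2.56% were called lower. Without control IgG-IP 2, Pcdh1 at 2.39, Cdh9 at 2.44, Cdh24 at 2.25, Pcdh9 at 1.59 and Fat4 at 1.05 were higher, where 17.9% were called higher. Dchs1 at -1.92, Cdh2 at -1.39 and Cdh11 at -1.30 were lower, where 17.4% were called lower. No member passed both thresholds in both of these fits, which share both TSSK2-IP libraries and are thus not independent. No member was called when TSSK2-IP 1 or TSSK2-IP 2 was left out. The log2 fold change of Cdh13 stayed between 0.86 and 1.05 under all 11 alternatives tried.

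The clustered protocadherins, measured in the same libraries, showed other values. Of their 57 genes 43 were tested, 42 had a log2 fold change above 0 and 18 were called higher. The median was 2.63, and both TSSK2-IP libraries were above both controls for 41. Among all genes tested 0.693% were called higher, the median was -0.02, and 27.3% had both TSSK2-IP libraries above both controls. The medians were 3.55 for Pcdha (14 tested, 11 called), 1.58 for Pcdhb (8 tested of 22, 0 called) and 2.43 for Pcdhg (21 tested, 7 called). The 7 non-clustered protocadherins together with Pcdh15, which are their nearest relatives by name, had a median of -0.59. The alternative transcripts of a Pcdha or Pcdhg cluster share their last exons and are thus not independent of one another, and no test of the difference between the lists was made.

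**Figure D4:**
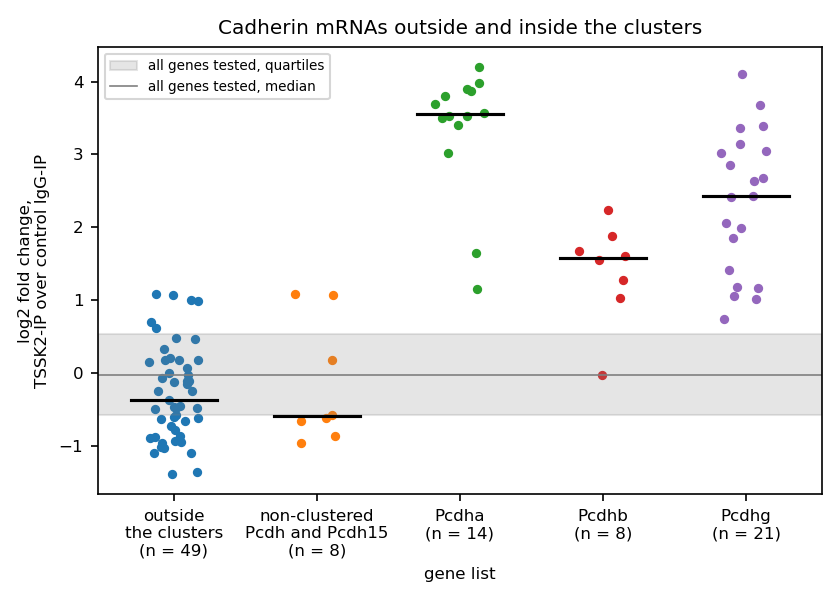
Log2 fold change of TSSK2-IP over control IgG-IP (vertical axis) of each tested gene, for the cadherins outside the clusters, their non-clustered Pcdh members with Pcdh15, and the Pcdha, Pcdhb and Pcdhg clusters (horizontal axis). Black bars are medians and the grey band spans the quartiles of all genes tested. The median is -0.37 outside the clusters and 3.55, 1.58 and 2.43 in the clusters.

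Genes that act with cadherins were taken as a list of 48 catenins, plakins, plakophilins, polarity, Hippo and tip-link genes. Of these 43 were tested, 18 with a log2 fold change above 0 and 25 below 0, with a median of -0.12, and 1 was called higher and 0 lower by edgeR, against 0.693% and 0% of all genes tested. At an unadjusted p under 0.05, 2 were higher and 0 lower, against 8.34% and 4.89%. The gene called was Ctnnd1, p120-catenin, which binds the juxtamembrane tail of classical cadherins and keeps them at the cell surface. It had 46.9 and 42.4 CPM in TSSK2-IP and 4.68 and 8.50 CPM in control IgG-IP. Both TSSK2-IP libraries were far above both controls, with a log2 fold change of 2.77 (SE 0.45, adjusted p = 0.0123). Ctnnd1 lies on chromosome 2 from 84600071 to 84650765, and 4482 of its 7319 exon bases overlap Gm28635 on the same strand, so how the counting divided reads between these annotations is uncertain. The call was lost with upper-quartile normalization (log2 fold change 2.703, adjusted p = 0.0681), without TSSK2-IP 1 (2.696, adjusted p = 0.251) and without TSSK2-IP 2 (2.84, adjusted p = 0.140), and over all 11 alternatives the adjusted p ran from 1.46e-23 to 0.251. Tmc1, the mechanotransduction channel to which tip links connect, had 43.5 and 39.6 CPM in TSSK2-IP and 17.8 and 26.0 CPM in control IgG-IP, and did not pass (log2 fold change 0.93, SE 0.40, adjusted p = 0.351). On the lower side, plakophilin Pkp2 was at -1.43 (adjusted p = 0.398) and the polarity gene Scrib at -1.18 (adjusted p = 0.404), with Scrib at 188 and 150 CPM in TSSK2-IP and 528 and 240 CPM in control IgG-IP.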

How the data were processed

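Per the submitters' processing notes, Trimmomatic 0.39 was used for trimming, STAR 2.7.10a for mapping to GRCm38 and featureCounts 2.0.3 for counting per gene, and the authors deposited raw counts, in whole numbers and without normalization. Strand setting and the handling of reads shared by overlapping genes or copies are not given in the sources used here. Library totals ran from 3938922 to 9858941 counts.

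Symbols, positions and coding sequences came from GENCODE vM21 on the same build, which holds 21894 of the 21936 identifiers. The paper names Ensembl release 101 of this build. Exon lengths and overlaps given here may thus differ from those used in the counting. Counts were fitted with edgeR 4.0.16 in R 4.3.3 (filterByExpr, TMM, glmQLFit, glmQLFTest) on all genes, 14722 after the filter, and called at a log2 fold change of 1 and a Benjamini-Hochberg adjusted p of 0.05. Standard errors came from the fold change and the F statistic. Shared stretches of at least 150 bases and 97% identity were searched with BLAST. The fit was tested on simulated data.

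Members, partner and marker lists were chosen with earlier results of these data known. Every tested member is named with its log2 fold change. Library values were due for the 5 members of smallest p on either side, the 5 with the highest level per kilobase, and those that differed 2-fold between groups without overlap, and the partner list's 2 smallest p on either side were named. Further library values (Cdh1, Cdh9, Celsr2, Celsr3) were chosen after their values were seen. The alternatives were DESeq2 1.42.0, its size factors, upper-quartile normalization, no filter, at least 10 counts in every library, removal of mitochondrial genes and Lars2, the replicate number as a block, and each library left out.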

Additional observations from a re-analysis of the deposited data

How the results depend on the processing

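No member was called under DESeq2, its size factors, upper-quartile normalization, no filter, at least 10 counts in every library, removal of mitochondrial genes and Lars2, or the replicate block. With 1 library left out, 0 to 5 members were called higher and 0 to 3 lower, with calls only where a control library was left out. At an unadjusted p under 0.05, the count of higher members, 2 as reported, was 0 with DESeq2, 0 with its size factors, 1 with upper-quartile normalization, 4 without a filter and 0 to 6 with 1 library left out. The count of lower members, 1 as reported, was 4 with size factors, 2 with upper-quartile normalization, 4 without a filter and 0 to 12 with 1 library left out. At this unadjusted p, shares of all genes are given above only for the reported fit and DESeq2. Under the other settings, these counts of members were thus not compared with all genes. Calls past both thresholds over all genes also rose when either control library was left out. The median of the members ran from -0.50 to 0.04 and that of the partner list from -0.13 to 0.21 with 1 library left out, above 0 without control IgG-IP 2 (0.039 and 0.21), where the median of all genes was 0.16. DESeq2's size factors moved the median of all genes from -0.02 to -0.14 and that of the members to -0.50, DESeq2 itself to -0.20 and -0.52, and no filter to -0.15 and -0.47. Of the 49 members, 19 changed sign under some alternative, and 15 had opposite signs without control IgG-IP 1 and without control IgG-IP 2, Cdh22 (-1.64 and 0.16), Cdh9 (-0.16 and 2.44), Celsr3 (-0.98 and 0.29) and Cdh8 (-0.73 and 0.84) among them. Among the most abundant, Cdh23 was at 0.025 with at least 10 counts and from -0.11 to 0.041 with 1 library left out. Cdhr4 ran from -0.25 without TSSK2-IP 1 to 0.58 without control IgG-IP 1. Dsg1a was at -0.059 with DESeq2, -0.12 with its size factors, -0.053 with upper-quartile normalization, -0.011 without a filter, and from -0.12 to 0.13 with 1 library left out. The sign held under every alternative that kept the gene (10 or 11 of them) for 30 of the 49 members, 10 higher and 20 lower. The cause of these shifts was not tested.

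The replicate number is shared by both groups but is not said to mark a common animal or day. With it as a block, 0 members were called, 2 were higher and 1 lower at an unadjusted p under 0.05, and the median was -0.36. Over all genes the block raised the calls from 102 to 274 higher and from 0 to 3 lower. Calls higher over all genes were 139 with DESeq2, 20 with upper-quartile normalization, 283 higher and 24 lower without a filter, 29 with at least 10 counts, 23 and 33 without TSSK2-IP 1 or 2, 894 higher and 426 lower without control IgG-IP 1, and 2755 higher and 2688 lower without control IgG-IP 2. Depth limits the members with few counts, and 12 of 61 were not tested after the filter.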
